A study of Homo sapiens with 12 samples.

Results

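Gene expression was compared between HEL cells that carried the guide RNA sg2, directed against the histone demethylase gene KDM4C, and HEL cells that carried a guide against luciferase (control). HEL is a human erythroleukemia line with a mutated JAK2 kinase. The members of this comparison are the 4 libraries labelled KDM4C KO sg2 and the 4 libraries labelled Control, 8 of the 12 libraries in the series, with all genes of the count table considered. Of 38551 genes read, 13996 had enough counts to be tested. All groups, control included, expressed the Cas9 nuclease, were grown in blasticidin, received their guide by lentivirus and then spent 11 days in puromycin (1.5 µg/mL). The count table names the vehicle DMSO for every library. The remaining 4 libraries carried a second KDM4C guide, sg3. They serve here to show where sg2 differs from it, and they share 1 fit with the other libraries. No isolation of clones is described, so each library is taken as a selected population that may hold cells with different edits. Replicates were separated after selection in the study's methods, so p-values measure the spread between these libraries, which may be technical.

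KDM4C belongs to a family of enzymes with a Jumonji domain that use iron, oxygen and 2-oxoglutarate to remove methyl groups from lysines 9 and 36 of histone H3. Methylation of lysine 9 is a mark of silent chromatin, and methylation of lysine 36 is laid down along transcribed genes. KDM4A and KDM4B are the closest relatives of KDM4C. HEL cells express genes of both the red cell and the platelet lineage, and JAK2 is the kinase that relays signals of the erythropoietin and thrombopoietin receptors.

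The guide is shown first because the whole comparison rests on where it cuts. The first line gives the 20 bases of sg2 in lower case. The second gives its only exact match in the genome, at hg38 chr9:7011774-7011856 on the plus strand with the bases around it, where capitals mark the match and the TGG motif that Cas9 requires next to it. The third gives the luciferase guide of the control cells.
sg2 guide: gcaagagtataatgcaacag
KDM4C site of sg2: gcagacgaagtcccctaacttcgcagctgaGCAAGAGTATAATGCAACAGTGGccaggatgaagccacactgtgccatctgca
luciferase guide: gattctaaaacggattacca

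The match of sg2 spans positions 7011804 to 7011823, and the cut is placed after position 7011820. This lies in exon 13 of KDM4C, the coding exon 12 of 21, whose coding part runs over positions 7011698 to 7011879. The cut follows coding base 1909 of 3168, in codon 637 of 1056, that is 60.3% of the way through the reading frame. KDM4C itself spans positions 6720863 to 7175648 of chromosome 9. The luciferase guide had 0 matches next to an NGG motif in hg38 with up to 2 mismatches and 8 with 3. Other sites that resemble sg2 were few: 0 with 1 mismatch, 2 with 2 mismatches and 6 with 3, and 0 of them lay in a coding exon. The site nearest in sequence that falls in an exon is that of the noncoding LINC01069 on chromosome 13, which differs from the guide by C15A and C18A, counted from 1 at the guide's 5′ end, and had 0 counts in all sg2 and control libraries. Of the genes that hold the other near matches, SOX5 was tested, with a log2 fold change of 0.12 (edgeR, adjusted p = 0.419), and its match lies in an intron.

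KDM4C mRNA was lower in each of the 4 sg2 libraries than in any control library. Expression, as CPM (counts scaled to library size, with TMM factors), was 40.5, 43.0, 49.8 and 55.1 in sg2 libraries 1 to 4, against 67.8, 70.2, 68.1 and 71.4 in control libraries 1 to 4. The log2 fold change was -0.57 ± 0.07 (SE; edgeR's quasi-likelihood test, Benjamini-Hochberg adjusted p = 2.59e-05 over 13996 genes). The sg2 libraries differed among themselves more than the control libraries did, with a mean of 47.1 ± 6.62 CPM (SD, n = 4) in sg2 and 69.4 ± 1.72 CPM (n = 4) in control. Libraries 1 and 2 held the lowest KDM4C of the 4, and the log2 fold change was -0.73 from these 2 alone and -0.40 from libraries 3 and 4 alone, both called. Counting covers all exons, so mRNA that carries a short edit is still counted, and protein was not measured here. In bulk RNA, fewer cells that express a gene and less RNA per cell cannot be told apart.

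Among the relatives, KDM4B rose. It measured 67.2, 64.0, 87.8 and 84.7 CPM in sg2 libraries 1 to 4 and 49.4, 52.8, 50.2 and 52.6 CPM in the control libraries, a log2 fold change of 0.55 ± 0.08 (edgeR, adjusted p = 1.65e-04). KDM4A had a log2 fold change of -0.04 (edgeR, adjusted p = 0.481) and KDM4D one of 0.33 (edgeR, adjusted p = 0.175), and neither was called. Of 12 other demethylases of lysines 9 and 36 tested, KDM3A, which hypoxia induces, rose by 0.44 and the oxygenase gene RIOX1 fell by 0.48 on the log2 scale. Without control library 4, 3 of them rose. Among 21 tested methyltransferases and HP1 proteins, which write or read the same marks, 2 rose and 5 fell, shares of 9.52% and 23.8% beside 14.5% higher and 13.9% lower over all genes. The H3K9 methyltransferase SUV39H2 (-0.31, edgeR, adjusted p = 2.94e-04) and EHMT1 (-0.25, edgeR, adjusted p = 0.00108) were among the falls. EHMT1 lies on the long arm of chromosome 9, where the median over 396 tested genes was -0.13. Without sg2 library 4 the number of falls was 3.

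**Figure D1:**
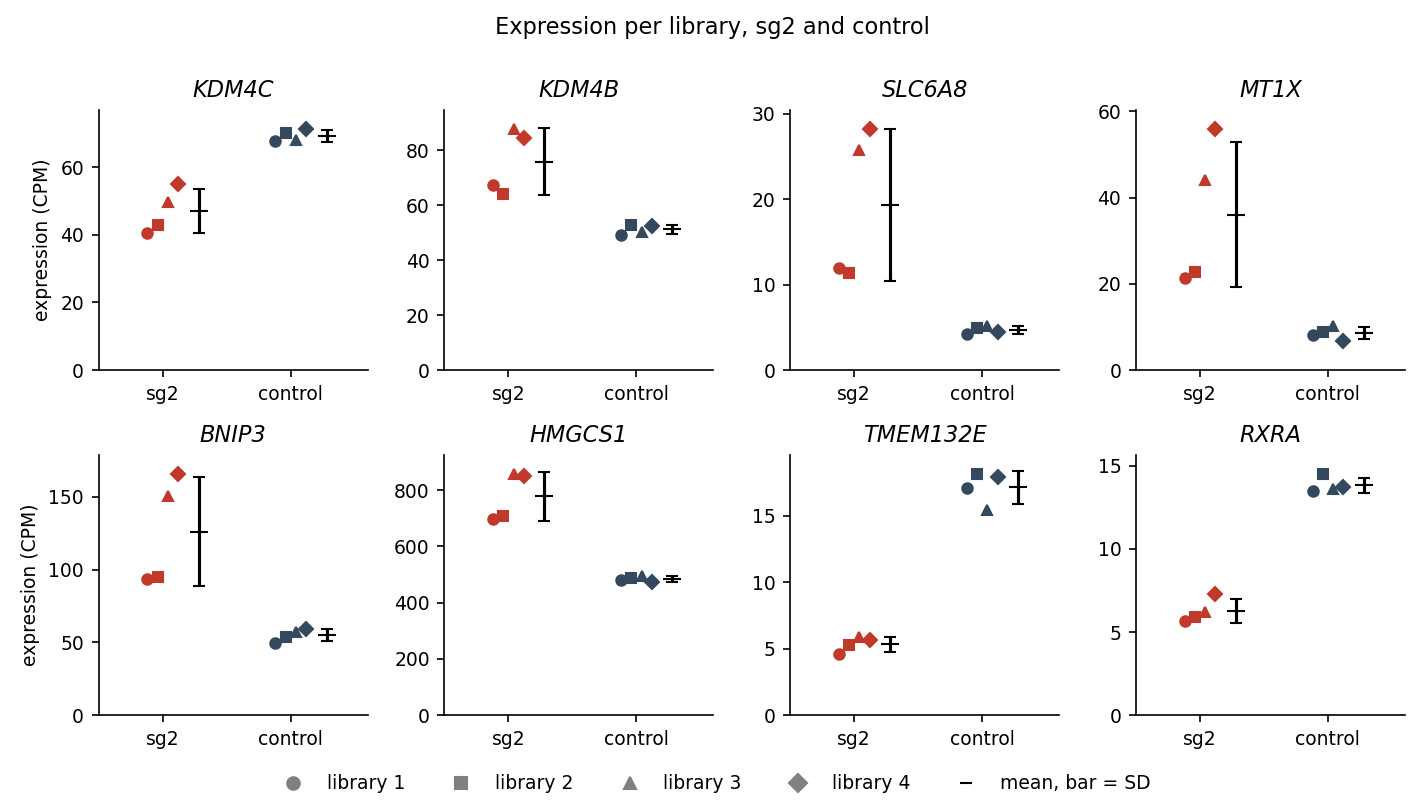
Expression (CPM, y axis from 0) of 8 genes in each sg2 library (left of each panel) and each control library (right); symbols give the library number, and the bar beside each group is the mean with its SD over 4 libraries. KDM4C, TMEM132E and RXRA lie lower and the other 5 genes higher in all 4 sg2 libraries, and SLC6A8, MT1X and BNIP3 lie highest in sg2 libraries 3 and 4.

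Total counts ranged from 10031809 to 33052605 in the sg2 libraries and from 13247734 to 78966125 in the control libraries. No 2 libraries of sg2 or of control agreed within sampling noise (reduced chi-square 2.10 to 7.79), so each was counted once. In sg2 the value was 2.92 for libraries 1 and 2 and 2.46 for 3 and 4, against 3.79 to 7.14 for the other pairs. Control libraries also grouped in pairs, with 2.10 for libraries 1 and 3 and 4.02 for 2 and 4, against 6.55 to 7.79. No alternative left out either control pair. On the first principal component of all genes tested, which held 38.4% of the variance, the sg2 libraries 3 and 4 lay at 14.3 and 12.4, libraries 1 and 2 at -3.25 and -0.269, and the control libraries between -27.6 and -22.8. Libraries 1 and 2, which had the lowest KDM4C, thus lay nearer to control than libraries 3 and 4. Defining markers of the line were present, with GATA1 at 248.5 to 267 CPM before scaling in sg2 and 231 to 243.8 CPM in control, and ITGA2B at 1224 to 1379 CPM in sg2 and 1069 to 1112 CPM in control. For other cell types, COL1A2, DCN and ELANE had 0 counts in all 8 libraries, and CD3D, MS4A1, CD14, MPO, S100A8 and S100A9 did not exceed 0.199 CPM in any. Some markers of other lineages were present at low levels, with CDH5 at 6.32 to 8.37 CPM in sg2 and 8.80 to 9.49 CPM in control, CD79A at 3.08 to 3.53 CPM in sg2 and 2.34 to 2.84 CPM in control, CD2 at 1.79 to 2.90 CPM in sg2 and 2.11 to 2.76 CPM in control and NKG7 at 1.89 to 2.78 CPM in sg2 and 1.33 to 2.11 CPM in control.

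Across all genes, sg2 was accompanied by many small changes. Of 13996 genes tested, 3963 (28.3%) were called at an adjusted p of 0.05, 2024 higher in sg2 (14.5%) and 1939 lower (13.9%). Called changes had a median size of 0.26 on the log2 scale, 105 genes rose by at least 1 and 47 fell by at least 1. For 2082 genes (14.9%) all 4 sg2 libraries lay above all 4 control libraries and for 2004 (14.3%) all lay below, and 3348 genes were both called and free of overlap. The median over all genes tested was -0.003, which TMM scaling sets near 0 by construction. The split between sg2 libraries was also counted among the calls. The grouping came from these same data, and no other grouping was counted. The counts thus describe the split and do not test it. Of the genes called higher, libraries 3 and 4 both lay farther from control than libraries 1 and 2 for 1067 (52.7%), and the opposite held for 123 (6.08%). For genes called lower the numbers were 994 (51.3%) and 137 (7.07%). Over the genes called higher, the median difference from control was 0.25, 0.25, 0.36 and 0.37 in sg2 libraries 1 to 4. Without libraries 3 and 4, 2026 genes were called, and without libraries 1 and 2, 3884. In neither case did a called gene change its sign.

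**Figure D2:**
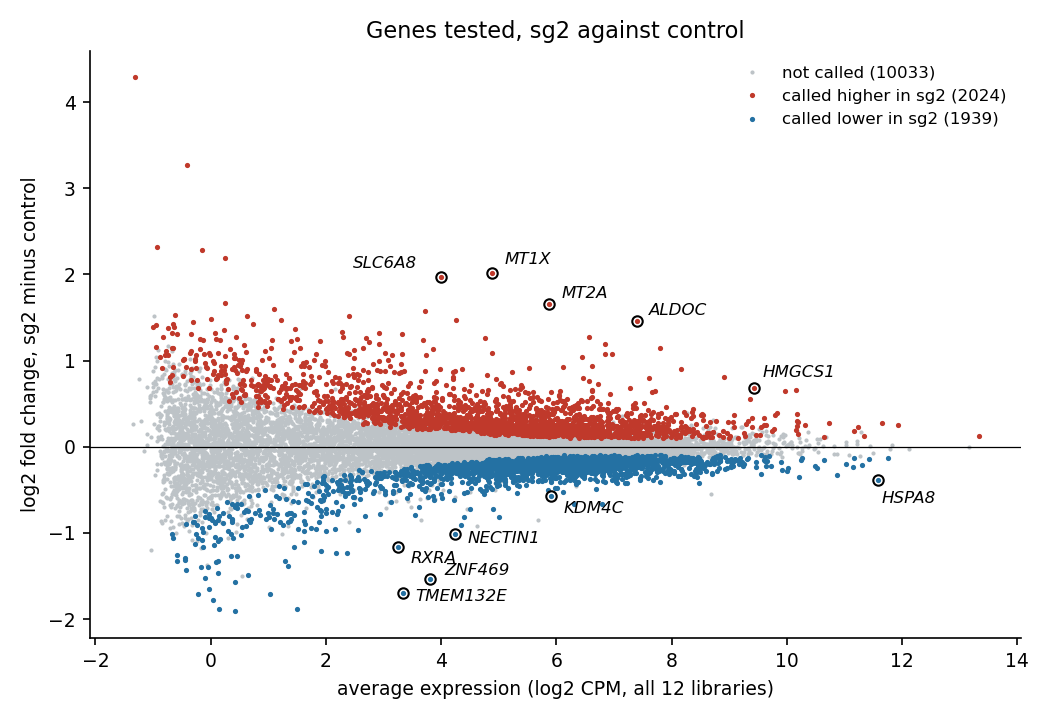
Each point is 1 of 13996 genes tested, by its average expression (x axis, log2 CPM over all 12 libraries) and its log2 fold change of sg2 minus control (y axis), with 2024 genes called higher in red, 1939 called lower in blue and the rest in grey. Most called changes are small, with a median size of 0.26, and labelled genes are described in the text.

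The strongest rises among well expressed protein-coding genes were those of metallothioneins and a creatine transporter. MT1X, a small metal-binding protein that buffers zinc and copper, measured 21.4, 22.8, 44.05 and 55.9 CPM in sg2 libraries 1 to 4, against 8.08, 8.92, 10.1 and 6.84 CPM in control (log2 fold change 2.02 ± 0.27, edgeR, adjusted p = 7.59e-05). SLC6A8, which carries creatine into the cell, measured 12.01, 11.4, 25.7 and 28.2 CPM in sg2, against 4.21, 4.88, 5.19 and 4.43 CPM in control (1.97 ± 0.25, edgeR, adjusted p = 3.42e-05). MT2A, a second metallothionein, measured 46.0, 46.6, 84.3 and 113 CPM in sg2 and 20.7, 23.5, 25.4 and 20.2 CPM in control (1.65 ± 0.27, edgeR, adjusted p = 3.34e-04). For all 3 genes libraries 3 and 4 stood well above libraries 1 and 2, and every sg2 library stood above every control library. Reads of metallothioneins and of SLC6A8 may also fit near-identical copies and be left out or misassigned, so their counts are less certain.

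The other genes that the naming rule took for their rise followed at 1.27 to 1.58 on the log2 scale. They were SPAG4 (1.58 ± 0.19), the export pump ABCC3 (1.52 ± 0.17), the gasdermin GSDME (1.48 ± 0.15), the glycolytic aldolase ALDOC (1.46 ± 0.14), the secreted netrin NTN4 (1.33 ± 0.27), ZC3H6 (1.31 ± 0.19), the stress cytokine GDF15 (1.30 ± 0.21), the repressor BHLHE40 (1.27 ± 0.13) and ARHGAP39 (1.27 ± 0.26). ALDOC was the most abundant of these by CPM, at 140.4, 141, 222 and 243 CPM in sg2 and 62.5, 69.7, 73.2 and 64.8 CPM in control. Noncoding genes with large rises were LOC107986779 (1.14), SAP30-DT (1.08), GSEC (0.96) and LOC105373602 (0.85). A larger fold change stood at the low end of expression, where the transcription factor KLF2 measured 0.575, 0.916, 1.59 and 2.11 CPM in sg2 and between 0.225 and 0.291 CPM in control (2.29 ± 0.39, edgeR, adjusted p = 4.33e-04).

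The strongest falls were more even over the sg2 libraries. TMEM132E, a membrane protein, measured 4.60, 5.25, 5.88 and 5.63 CPM in sg2 and 17.1, 18.2, 15.4 and 17.95 CPM in control (log2 fold change -1.70 ± 0.11, edgeR, adjusted p = 5.61e-08). ZNF469, a zinc finger gene, measured 7.33, 7.82, 9.27 and 8.92 CPM in sg2 and 23.8, 25.9, 22.4 and 22.8 CPM in control (-1.54 ± 0.09, edgeR, adjusted p = 4.71e-08). RXRA, the retinoid receptor that pairs with other nuclear receptors, measured 5.68, 5.93, 6.18 and 7.27 CPM in sg2 and 13.5, 14.5, 13.6 and 13.7 CPM in control (-1.16 ± 0.10, edgeR, adjusted p = 1.35e-06). In each of these genes the 4 sg2 libraries lay close together, and libraries 1 and 2 were at least as far from control as libraries 3 and 4. The cell adhesion gene NECTIN1 measured 14.3, 14.7, 14.5 and 13.4 CPM in sg2 and 30.03, 28.3, 27.8 and 29.3 CPM in control (-1.02 ± 0.06, edgeR, adjusted p = 5.61e-08). Other falls of the rule were TREML1 (-1.23), a receptor of platelet granules, PPP1R14C (-1.23), CNNM1 (-0.97), ALPK3 (-0.97), the zinc transporter SLC30A3 (-0.91), COCH (-0.81) and PDE5A (-0.81), which breaks down cyclic GMP. Noncoding genes with large falls were FBXW4P1 (-0.76), LOC105371705 (-0.64) and SLFNL1-AS1 (-0.64). The call of SLFNL1-AS1 was lost in 4 of 17 alternatives, 2 of which left out 1 library (sg2 library 2 and control library 2), with adjusted p-values of up to 0.101 (edgeR).

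Hypoxia-inducible genes outside glycolysis were among the groups with the widest rise. Of 34 tested, 25 rose and 2 fell, with a median log2 fold change of 0.62, beside 14.5% called higher and a median of -0.003 over all genes. BNIP3, a receptor for the removal of mitochondria, measured 93.2, 95.1, 150.2 and 165 CPM in sg2 and 49.5, 53.8, 57.1 and 59.3 CPM in control (1.19 ± 0.14, edgeR, adjusted p = 2.39e-05). DDIT4, an inhibitor of mTOR signalling, measured 123, 119.7, 168 and 172 CPM in sg2 and 64.7, 72.1, 69.7 and 67.1 CPM in control (1.08 ± 0.10, edgeR, adjusted p = 2.23e-06). The growth factor VEGFA (0.79), the prolyl hydroxylases EGLN1 (0.71) and P4HA1 (0.93), and the mitophagy receptor BNIP3L (0.46) also rose. HIF1A, which encodes a subunit of the oxygen-regulated factor itself, fell by 0.20 on the log2 scale, and CITED2, the member with the highest expression, measured -0.08 (edgeR, adjusted p = 0.200). The list median per library was 0.49, 0.33, 0.86 and 0.81 in sg2 libraries 1 to 4, against -0.04 to 0.03 in the control libraries. Counts without libraries 3 and 4 were 19 higher and 1 lower, with a median of 0.37. The number of falls is small and became 1 without any 1 of sg2 libraries 1 to 4 or of control libraries 1 to 3.

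Enzymes of glycolysis, glycogen and pyruvate handling moved the same way by smaller steps. Of 36 tested, 20 rose (55.6%, beside 14.5% over all genes) and 3 fell, with a median of 0.21. ALDOC (1.46) and PFKFB4 (1.07), which sets the level of a glycolytic activator, rose most. GAPDH, the most abundant by CPM, measured 3588, 3632, 4084 and 4559.8 CPM in sg2 and 3241, 3425, 3409.5 and 3262 CPM in control (0.25 ± 0.06, edgeR, adjusted p = 0.00498), and without sg2 libraries 3 and 4 its value was 0.11 and not called (edgeR, adjusted p = 0.0613). Lactate dehydrogenase LDHA (0.39), phosphoglycerate kinase PGK1 (0.55) and the glucose transporter SLC2A3 (0.81) rose too, while PFKFB3 (-0.29), PFKP (-0.13) and PYGB (-0.34) fell. Without sg2 libraries 3 and 4 the count was 13 higher and 3 lower. TXNIP, which restrains glucose uptake, measured 210.4, 195, 272 and 315 CPM in sg2 and 106, 114, 115 and 110.1 CPM in control (1.15 ± 0.11, edgeR, adjusted p = 2.74e-06). All 4 sg2 libraries again lay above control, with libraries 3 and 4 highest.

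Genes of cholesterol synthesis and uptake formed the third group with a wide rise. Of 26 tested, 20 rose (76.9%, beside 14.5% over all genes) and 1 fell, with a median of 0.31. HMGCS1, an early enzyme of the pathway, measured 698, 706, 856 and 849.8 CPM in sg2 and 480.1, 488, 494 and 471 CPM in control (0.69 ± 0.07, edgeR, adjusted p = 4.00e-06). MSMO1 rose by 0.76 ± 0.06 and CYP51A1 by 0.64 ± 0.05, both of them enzymes that demethylate sterols. SREBF2, the transcription factor of the pathway, rose by 0.11, and its relative SREBF1, which drives fatty acid synthesis, fell by 0.16 on the log2 scale. The split between sg2 libraries was narrower here, with list medians of 0.26, 0.25, 0.36 and 0.34 in libraries 1 to 4, against -0.02 to 0.02 in the control libraries. Of 13 fatty acid synthesis genes, 6 rose and 1 fell. ACSS2, which makes acetyl-CoA from acetate, rose by 0.58 ± 0.06, and FASN, the fatty acid synthase, measured 0.01 (edgeR, adjusted p = 0.906). The 1 fall among cholesterol genes was lost without sg2 library 1 or 3 or control library 1, 2 or 4.

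Promoters of 5 genes that rose are shown because regulators of their groups are known to bind short cores there. Many hypoxia, glycolysis and cholesterol genes rose together, whereas the metallothionein and zinc list did not. The sequences are the 250 bases before the transcription start, from RefSeq (GRCh38.p14), each read 5′ to 3′ on the gene's strand. Capitals mark, on either strand, the metal response core (TGCACNC or TGCGCNC) in MT1X (chr16:56682220-56682469) and MT2A (chr16:56608334-56608583), the hypoxia core (ACGTG or GCGTG) in BNIP3 (chr10:131981924-131982173, minus strand) and ALDOC (chr17:28576896-28577145, minus strand), and the CCAAT box in HMGCS1 (chr5:43313413-43313662, minus strand).
MT1X: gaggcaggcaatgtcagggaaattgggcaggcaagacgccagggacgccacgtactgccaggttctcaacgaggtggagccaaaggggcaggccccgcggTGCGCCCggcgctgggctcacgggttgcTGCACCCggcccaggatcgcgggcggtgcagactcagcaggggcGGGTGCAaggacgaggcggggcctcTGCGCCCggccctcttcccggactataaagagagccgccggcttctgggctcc
MT2A: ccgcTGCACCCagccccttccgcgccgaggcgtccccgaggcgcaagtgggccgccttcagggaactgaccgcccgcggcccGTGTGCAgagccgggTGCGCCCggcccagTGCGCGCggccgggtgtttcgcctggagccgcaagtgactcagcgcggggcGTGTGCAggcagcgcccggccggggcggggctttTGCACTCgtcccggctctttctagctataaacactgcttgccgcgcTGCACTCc
BNIP3: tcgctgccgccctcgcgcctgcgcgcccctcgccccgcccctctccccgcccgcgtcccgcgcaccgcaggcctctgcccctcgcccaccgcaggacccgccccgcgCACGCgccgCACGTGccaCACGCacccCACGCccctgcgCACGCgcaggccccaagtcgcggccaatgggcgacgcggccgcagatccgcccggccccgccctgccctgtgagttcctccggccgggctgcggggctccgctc
ALDOC: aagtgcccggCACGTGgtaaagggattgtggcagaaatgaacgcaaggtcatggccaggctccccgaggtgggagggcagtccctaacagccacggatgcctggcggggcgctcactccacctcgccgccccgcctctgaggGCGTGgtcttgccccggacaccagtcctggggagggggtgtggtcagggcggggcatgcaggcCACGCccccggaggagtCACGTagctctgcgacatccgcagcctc
HMGCS1: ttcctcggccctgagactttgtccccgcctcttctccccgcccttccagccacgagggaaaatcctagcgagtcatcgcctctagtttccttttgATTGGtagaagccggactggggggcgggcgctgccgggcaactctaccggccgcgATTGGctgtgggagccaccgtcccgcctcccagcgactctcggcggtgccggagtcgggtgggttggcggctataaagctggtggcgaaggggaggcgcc

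The metal response core occurred 7 times in the MT2A window and 4 times in that of MT1X. Over windows of 300 bases, 250 before and 50 after the start, 38.3% of 10436 promoters of tested genes held it, as did 7 of 17 promoters of the metallothionein and zinc list. Those 7 include the 4 promoters of its members called higher, MT1X, MT2A and the zinc exporters SLC30A1 and SLC30A6. They also include that of SLC30A3, which fell (-0.91). The first form of the hypoxia core lies inside the CACGTG E-box, so each CACGTG counted as 2 matches, on opposite strands. Counted so, the core was found 6 times in the BNIP3 window and 5 times in that of ALDOC. The core stood at least once in 62.5% of promoters of tested genes. It was in 22 of 27 matched promoters of the hypoxia list, 16 of 18 among members called higher. In the glycolysis list it was in 21 of 33 (63.6%), near the share over tested genes, and in 15 of 19 among members called higher. The CCAAT box stood 2 times in the HMGCS1 window, in 37.3% of promoters of tested genes and in 15 of 20 matched promoters of the cholesterol list, 13 of 15 among members called higher. The promoter of TXNIP, whose sequence is not shown, was also searched, for the CACGTG E-box, and had 0 matches, while 9.98% of promoters of tested genes held it. Only this exact form was searched, so the 0 matches do not cover looser forms of the site. These are matches of letters, and binding was not measured.

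Of the whole metallothionein and zinc list, 4 of 22 tested genes rose and 4 fell (18.2% each), near the 14.5% higher and 13.9% lower over all genes. The rises of MT1X and MT2A were thus not shared by the list. SLC30A1, which exports zinc and is a target of the metal-sensing factor MTF1, rose by 0.59, MTF1 itself fell by 0.17 on the log2 scale, and MT1E measured -0.44 without a call. The number of falls was 2 without sg2 library 3 or 4 or control library 2 or 4.

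**Figure D3:**
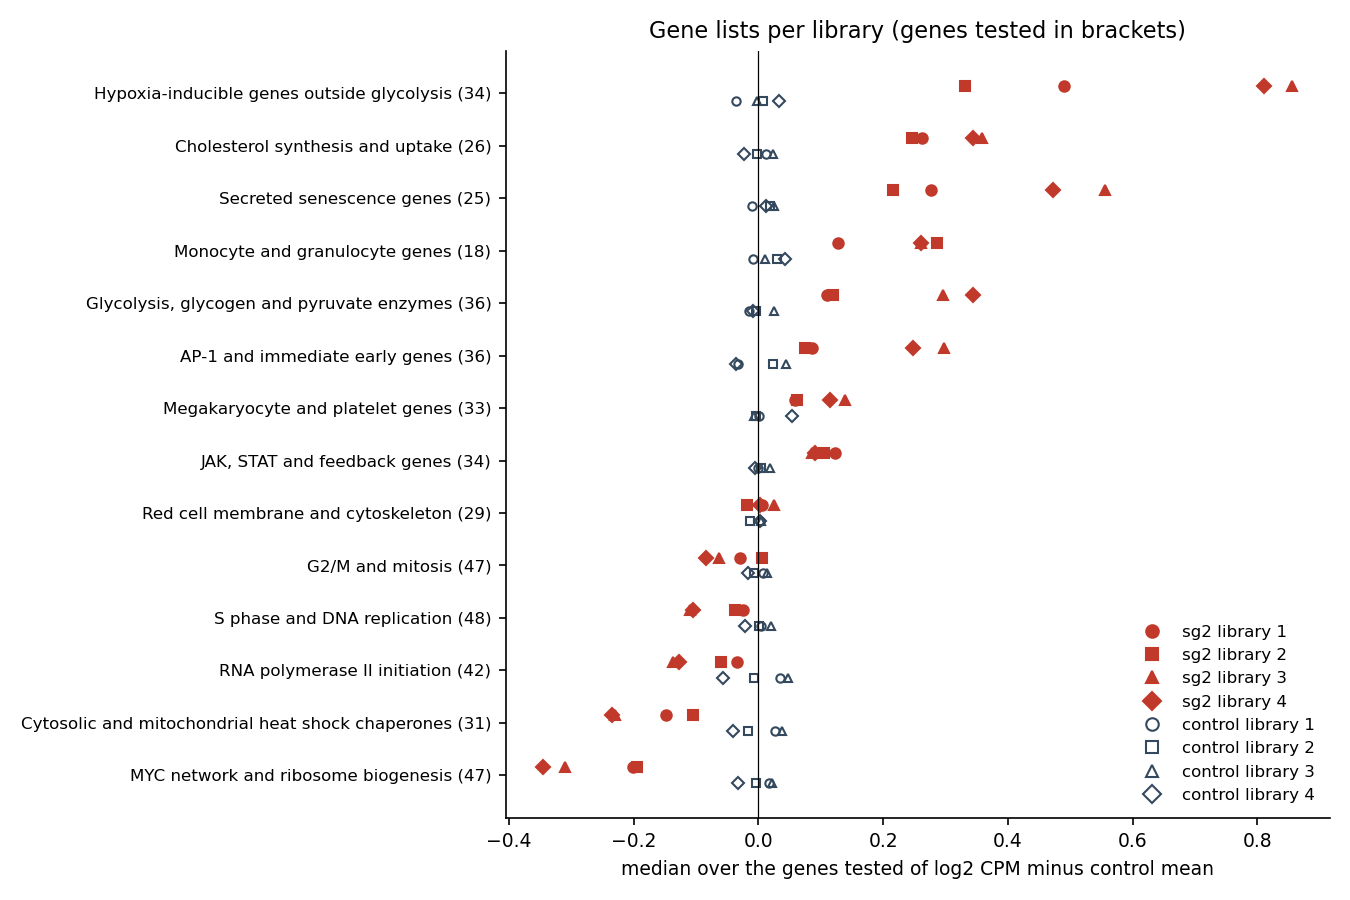
Median over the tested genes of each list (number in brackets) of the difference in log2 CPM from the control mean (x axis), for each sg2 library (filled red) and each control library (open dark); symbols give the library number. The hypoxia list reaches 0.86 in sg2 library 3 and the list of MYC and ribosome biogenesis -0.34 in sg2 library 4, and sg2 libraries 1 and 2 lie nearer to control in both.

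Ribosome biogenesis was the group that fell most widely. Of 47 tested genes of the MYC network and of ribosome production, 0 rose and 37 fell, with a median of -0.25, beside 13.9% called lower over all genes. MYC, the transcription factor that drives ribosome production, measured 500.1, 499, 480.0 and 489 CPM in sg2 and 581, 581, 587 and 572 CPM in control (-0.24 ± 0.03, edgeR, adjusted p = 1.24e-04). NOP2, a methyltransferase of ribosomal RNA, measured 125, 130.5, 115 and 111 CPM in sg2 and 161, 164, 161 and 160.3 CPM in control (-0.42 ± 0.05, edgeR, adjusted p = 1.05e-05). Nucleolin NCL, the most abundant by CPM, measured -0.21 ± 0.04, and UTP15 (-0.44), RRP12 (-0.43) and the RNA polymerase I subunit POLR1A (-0.41) fell more. MYC lay at about the same level in all sg2 libraries, whereas the list median was -0.20, -0.20, -0.31 and -0.34 in libraries 1 to 4. Without libraries 3 and 4, 28 members fell. On leaving out 1 library the falls numbered 35 to 37, and 1 member rose without sg2 library 1. Cytosolic ribosomal protein genes did not share the fall, with 5 of 74 higher, 2 lower and a median of 0.11. The rises numbered 2 or 3 without sg2 library 3 or 4 or control library 1, 2 or 4.

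Chaperones of the cytosol and mitochondria fell as well. Of 31 tested, 1 rose and 21 fell (67.7%, beside 13.9% over all genes), with a median of -0.16. HSPA8, the constitutive HSP70, measured 2975, 3169, 2599 and 2542 CPM in sg2 and 3694, 3723, 3785 and 3558 CPM in control (-0.39 ± 0.06, edgeR, adjusted p = 1.08e-04), and its exchange factor HSPH1 fell by 0.34 on the log2 scale. Without libraries 3 and 4 the falls numbered 11. Chaperones of the endoplasmic reticulum went both ways, with 3 of 29 higher (10.3%) and 6 lower (20.7%), and 10 lower without sg2 library 2. The oxidase ERO1A, also a hypoxia gene, rose by 0.48, and HYOU1 fell by 0.50 on the log2 scale. Without sg2 libraries 3 and 4, HYOU1 measured -0.31 and was not called (edgeR, adjusted p = 0.104). Genes of the ATF4 stress response rose in 11 of 28 cases (39.3%, beside 14.5% over all genes), among them DDIT4 and GDF15, and 2 fell, or 1 without sg2 library 3 or 4 or control library 1, 2 or 3, and 0 without sg2 libraries 3 and 4.

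Senescence was a question of the study, and its 5 named genes were chosen on these samples, so their directions are not independent evidence. CDKN1A (p21), a brake on cyclin-dependent kinases, measured 8.48, 8.16, 9.67 and 10.9 CPM in sg2 and 4.58, 5.32, 4.66 and 5.18 CPM in control (0.88 ± 0.11, edgeR, adjusted p = 4.42e-05). The cytokine IL1B measured 48.6, 52.1, 53.02 and 60.0 CPM in sg2 and 31.3, 28.1, 25.8 and 27.6 CPM in control (0.91 ± 0.07, edgeR, adjusted p = 8.71e-07). The survival factor BCL2 rose by 0.56 ± 0.08, the matrix glycoprotein THBS1 fell by 0.54 and the kinase MTOR fell by 0.30 on the log2 scale. Without sg2 libraries 3 and 4, MTOR measured -0.19 and was not called (edgeR, adjusted p = 0.0908). Of 24 tested inhibitors of cyclin-dependent kinases and senescence markers, 5 rose (20.8%) and 1 fell (4.17%), with a median of -0.02. CDKN1A was thus not followed by most of its list, and over all genes 14.5% were called higher and 13.9% lower. The 1 fall was lost without control library 1 or sg2 library 3 or 4 and became 3 without sg2 library 1 or 2. Secreted senescence genes numbered 15 higher (60%) and 2 lower (8%) of 25, with a median of 0.30. CXCL8 (1.60) and AREG (1.39) were at most 4.93 CPM in any sg2 library, and IGFBP5, the member with the highest CPM, measured 0.01 (edgeR, adjusted p = 0.810). The call of AREG was lost in 2 of 16 alternatives, 1 of which left out control library 2. Without sg2 libraries 3 and 4, 8 secreted genes rose. Targets of p53 numbered 11 higher (44%) and 1 lower (4%) of 25, with TP53INP1 at 0.96 and CCNG2 at 0.88. The number that rose was 6 without control library 2 and 7 without sg2 library 3 or 4.

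Genes of the cell cycle were counted in both directions. Of 48 S phase genes 3 rose and 10 fell (6.25% and 20.8%), and of 47 genes of G2 and mitosis 3 rose and 6 fell (6.38% and 12.8%), beside 14.5% higher and 13.9% lower over all genes, and the medians were -0.08 and -0.05. UBE2C, a ubiquitin-conjugating enzyme of mitotic exit, measured 17.8, 17.7, 19.7 and 18.5 CPM in sg2 and 31.3, 29.9, 32.2 and 27.0 CPM in control (-0.72 ± 0.07, edgeR, adjusted p = 4.97e-06). The mitotic kinase BUB1 rose by 0.29 and the licensing factor CDT1 by 0.37, while TOP2A measured 0.04 (edgeR, adjusted p = 0.471). The S phase falls numbered 4 to 6 without control library 1 or 2 or sg2 library 3 or 4. Those of mitosis numbered 11 without sg2 library 2 and 3 without sg2 library 4, and S phase rises numbered 1 without control library 1 or sg2 library 2, as did mitosis rises without control library 2. Of 54 DNA damage genes 1 rose and 12 fell, and 6 fell without control library 2 or sg2 library 3 or 4. Of 42 genes of RNA polymerase II initiation 1 rose and 6 fell, with TAF7 at -0.40, and 0 rose without control library 2.

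Signalling genes downstream of JAK2 and other kinases were called higher more often than lower, beside 14.5% higher and 13.9% lower over all genes. Of 34 tested genes of JAK and STAT proteins and their feedback, 14 rose (41.2%) and 2 fell, with a median of 0.11. SOCS3, which blocks JAK signalling, rose by 0.68 ± 0.06, SOCS1 by 0.83 ± 0.16 and the kinase PIM1 by 0.37 ± 0.04. PIM1 measured 888, 876, 989 and 1011 CPM in sg2 and 721, 735, 741 and 707 CPM in control. JAK2 measured 294, 299.8, 315 and 311 CPM in sg2 and 320.4, 327, 309 and 343 CPM in control, a log2 fold change of -0.09 that edgeR did not call (adjusted p = 0.0815) and DESeq2 did (adjusted p = 0.0460). Of 36 AP-1 and immediate early genes 18 rose and 3 fell, and of 30 NF-kB genes 12 rose and 3 fell. Of 41 interferon-stimulated genes 9 rose and 3 fell (7.32%), with a median of 0.08. ATF3 rose by 0.84, the NF-kB target TRAF1 by 1.12 and IFITM1 by 0.57. DUSP4, which switches off MAP kinases, had a log2 fold change of -0.90 and was called, but not without sg2 libraries 3 and 4 (-0.80, edgeR, adjusted p = 0.0757). Without sg2 libraries 3 and 4 the AP-1 rises numbered 10. The interferon rises numbered 4 without control library 2 and 5 without sg2 library 3, and its falls 1 without control library 1 or 2 or sg2 library 3 or 4.

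Lineage genes of HEL went both ways, and their counts stand beside 14.5% higher and 13.9% lower over all genes. The globin list had 0 of 9 genes higher and 1 lower, HBZ at -0.29 ± 0.06 (edgeR, adjusted p = 0.00322), and HBG2, the fetal globin with the highest CPM, measured -0.07 (edgeR, adjusted p = 0.534). In heme synthesis 6 of 19 rose and 4 fell. ALAS2, the erythroid enzyme that starts the pathway, measured 162, 163, 187 and 205 CPM in sg2 and 140.0, 144, 143 and 135 CPM in control (0.35 ± 0.06, edgeR, adjusted p = 4.84e-04), and CPOX rose by 0.37. The falls in heme synthesis numbered 1 or 2 without any 1 of sg2 libraries 1, 3 and 4 or of control libraries 1 to 3. Megakaryocyte and platelet genes rose in 12 of 33 cases, 4 fell, and examples were ANGPT1 (0.64), ITGA2B (0.25) and the fall of TREML1 (-1.23). Erythroid and megakaryocyte transcription factors rose in 9 of 25 cases, 5 without sg2 library 3 or 4, and 2 fell, with GATA2 at 0.30 ± 0.05. Red cell membrane genes numbered 6 higher and 3 lower of 29 (20.7% and 10.3%), near the shares over all genes, and the transferrin receptor TFRC fell by 0.25 on the log2 scale.

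Markers of other cell types were also counted, again beside 14.5% higher and 13.9% lower over all genes. Monocyte and granulocyte genes numbered 9 higher and 2 lower of 18 tested, with a median of 0.23, but CSF1R (1.25) and the integrin ITGAX (1.01) stayed at or below 1.40 CPM in every sg2 library, and the call of ITGAX was lost in 7 of 16 alternatives and that of CSF1R without sg2 libraries 3 and 4 (edgeR, adjusted p = 0.0512). The rises numbered 5 without control library 2 or sg2 library 4. The summed level of that list was 436 to 463 CPM in sg2 and 403 to 418 CPM in control, and most of it was ANPEP, at 0.08 (edgeR, adjusted p = 0.202). The defining monocyte and granulocyte markers CD14, MPO, ELANE, S100A8 and S100A9 were at or near 0. Of 15 T, B and NK cell markers 6 were tested and 3 rose, with CD4 at 0.44 ± 0.04, and the summed level was 183 to 199 CPM in sg2 and 133 to 147 CPM in control. The rises numbered 1 without control library 1 or sg2 library 2. Of 17 fibroblast, endothelial and epithelial markers 7 were tested, 6 rose and 1 fell, with the keratin KRT8 at 0.88 ± 0.12 and PECAM1 at 0.11 (edgeR, adjusted p = 0.0461). Their summed level was 302 to 319.6 CPM in sg2 and 258 to 273 CPM in control, and the fall was lost without sg2 library 2. The rises numbered 4 or 5 whenever 1 library was left out and 3 without sg2 libraries 3 and 4. The call of PECAM1 was lost in 10 of 17 alternatives, among them those without sg2 library 2, 3 or 4 or control library 1, 2 or 3, and that of the collagen COL1A1 in 12 of 15. The part of these markers in the other results was not tested.

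Genes for histones that are made only during replication, and small RNAs without a poly(A) tail, differed widely between libraries. Of 50 histone genes tested 0 were called by edgeR, and their median was 0.29, -0.59, -0.86 and -0.26 in the sg2 libraries and -0.99, 0.64, -0.38 and 0.71 in the control libraries. Groups overlapped, and without control library 1 edgeR called 24 histone genes lower, against 1 to 3 without sg2 library 1 or 4 or control library 3. Of 133 small RNA genes tested 0 rose and 12 fell (9.02%, below the 13.9% called lower over all genes). These falls numbered 3 without control library 2 or sg2 library 2, 7 without control library 4 and 6 without sg2 library 3. Of 13 genes of the mitochondrial chromosome 0 rose and 5 fell (38.5%), led by CYTB at -0.35.

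By position, the changes were uneven over chromosomes. On chromosome 9, where KDM4C lies, 30.7% of 540 tested genes were called lower and 8.89% higher, and on chromosome 14 the values were 29.9% lower and 7.90% higher of 405. On chromosome 12, 189 of 756 were called higher and 46 lower. On the other 20 chromosomes compared, 5.74% to 18.9% of genes were called lower and 9.64% to 19.6% higher. Within chromosome 9 the shift lay on the long arm, across the centromere from the cut. There, 149 of 396 genes were lower and 28 higher, and the median difference from control was -0.116, -0.122, -0.121 and -0.127 in sg2 libraries 1 to 4, against -0.006 to 0.006 in the control libraries. On the short arm, which carries the cut, 17 of 144 were lower and 20 higher, and the median was 0.01. All 4 sg2 libraries shared the shift of the long arm, without the split seen elsewhere. Among the genes described above, RXRA and EHMT1, which fell, and TRAF1, which rose, lie on this arm. Chromosome 14 lay at -0.08, -0.09, -0.09 and -0.11 in sg2 libraries 1 to 4 and chromosome 12 at 0.08, 0.08, 0.08 and 0.06. Genes described above that lie on chromosome 14 include RIOX1 and COCH, which fell, and ERO1A, which rose. Those on chromosome 12 include GAPDH, NTN4, CD4 and KRT8, which rose, and NOP2, which fell. With sg3 the medians were -0.13 for the long arm of chromosome 9, -0.12 for chromosome 14 and 0.06 for chromosome 12, and they share the control libraries with the sg2 values. Whether these shifts reflect copy number was not tested.

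**Figure D4:**
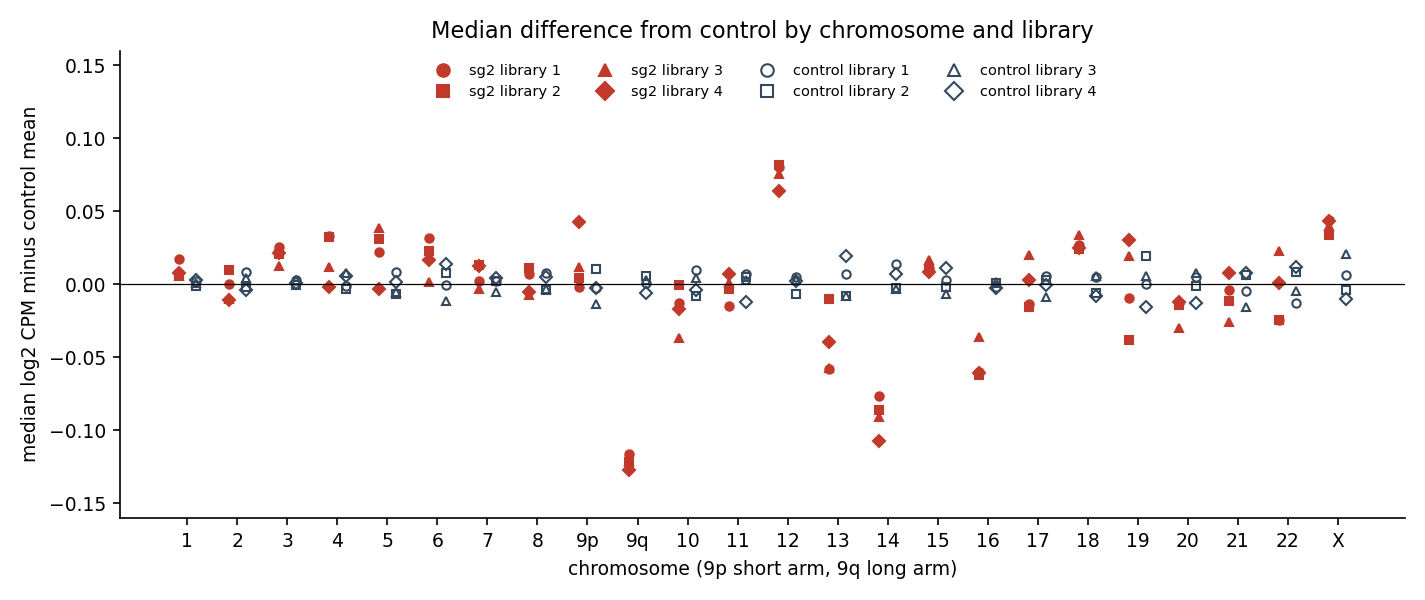
Median over the tested genes of each chromosome of the difference in log2 CPM from the control mean (y axis), with chromosome 9 divided into short (9p) and long (9q) arm, for each sg2 library (filled red, left) and each control library (open dark, right). The long arm of chromosome 9 lies between -0.127 and -0.116 in the 4 sg2 libraries, chromosome 14 is also low and chromosome 12 high, while the control libraries stay near 0.

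Genes nearest to the cut did not move together. Telomeric to it on the short arm 21 genes were tested, 6 of them higher (28.6%) and 3 lower (14.3%), with a median of 0.02. Over all genes 14.5% were called higher and 13.9% lower. PUM3 (-0.34), RCL1 (-0.28) and UHRF2 (-0.11) fell, while CD274, the immune checkpoint ligand PD-L1, rose by 0.38 and ERMP1 by 0.36. Within 5 Mb on the centromeric side 2 genes were tested, DMAC1 at 0.04 and PTPRD at -0.08, and neither was called.

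Finally, sg2 was set against sg3 directly. This contrast leaves out the control mean, but all 12 libraries, control included, set the filter, the scaling and the spread. Of 13996 genes tested edgeR called 1 (0.00714%), although 2098 had an unadjusted p under 0.05, and DESeq2 called 121 and limma-voom 18. The gene was KIT, the stem cell factor receptor, at 1047, 1099, 1209 and 1222 CPM in sg2, at 1429, 1424, 1424 and 1493 CPM in sg3 and at 872, 887, 864 and 890.4 CPM in control. The difference was -0.33 ± 0.04 for sg2 minus sg3 (edgeR, adjusted p = 0.0155) and 0.38 ± 0.04 for sg2 minus control (edgeR, adjusted p = 2.06e-05), so KIT stood between control and sg3 in all 4 sg2 libraries. KDM4C had the next smallest adjusted p. It averaged 47.1 ± 6.62 CPM in sg2 and 61.7 ± 1.86 CPM in sg3 (SD, n = 4 each), a difference of -0.40 ± 0.07 (edgeR, adjusted p = 0.0641). ALDOC measured 140.4, 141, 222 and 243 CPM in sg2 and 251, 264, 243.5 and 253 CPM in sg3, so libraries 3 and 4 came close to sg3 and libraries 1 and 2 did not, and the difference of -0.45 ± 0.13 was not called (edgeR, adjusted p = 0.1703). The count of called genes depended on which sg2 libraries were used: 967 were called from libraries 1 and 2, 201 without library 4, and 0 from libraries 3 and 4. The call of KIT was also lost with the 8 libraries of sg2 and sg3 alone and without sg2 library 2, sg3 library 1 or sg3 library 3, each with 0 genes called.

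**Figure D5:**
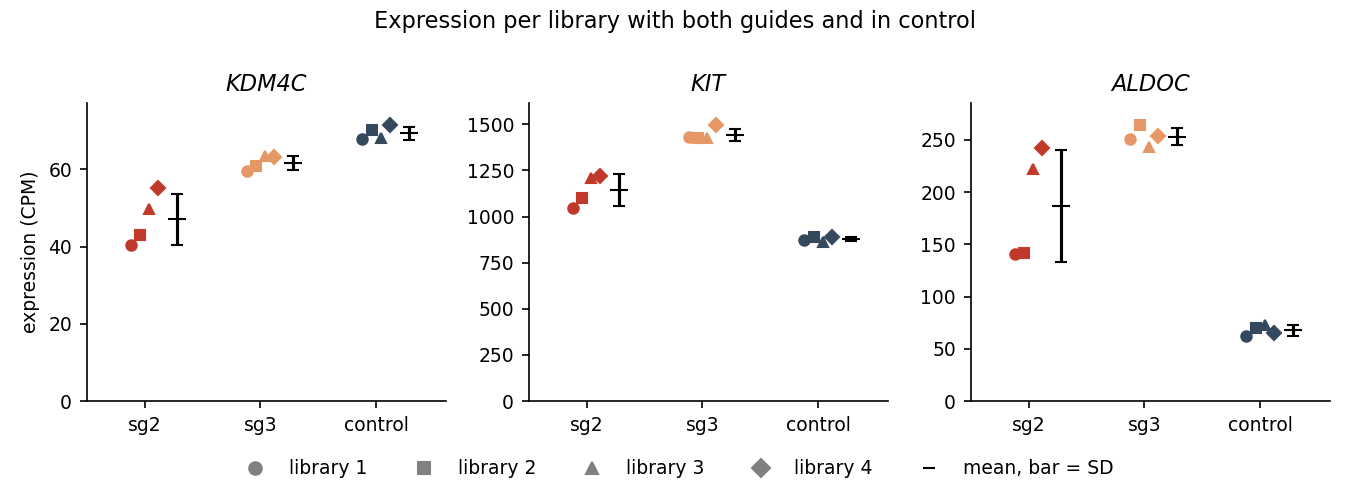
Expression (CPM, y axis from 0) of KDM4C, KIT and ALDOC in each library of sg2, sg3 and control, from left to right; symbols give the library number, and the bar is the mean with its SD over 4 libraries. KDM4C is lowest with sg2, KIT lies between control and sg3 in all 4 sg2 libraries, and ALDOC in sg2 libraries 3 and 4 comes close to its sg3 values.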

How the data were processed

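RNA was sequenced from HEL-Cas9 cells with sg2, sg3 or a luciferase guide (4 libraries each). The deposited values are raw counts per gene, not normalized, which the authors obtained with featureCounts 2.0.1 after trimming (Trimmomatic 0.39) and STAR 2.7.4a alignment against hg38. The counting options stated name no strand and no setting for reads that fit several genes. Reads of overlapping or antisense genes and of near-identical copies may thus be assigned to another gene or left out. Of 38571 lines 20 were broken, and the 6 genes on them (ABI3BP, CACNA1C, DST, NEB, SYNE1 and TTN) were left out. Gene types came from RefSeq for 92.5% of symbols, and 99.95% of 26193 genes compared overlapped the same gene of the reference annotation, so both use hg38.

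Genes were filtered by filterByExpr (minimum count 10, total 15) and tested with edgeR 4.0.16 (R 4.3.3), as quasi-likelihood contrasts of a model with 1 mean per group over all 12 libraries, TMM scaling and Benjamini-Hochberg adjustment, called at 0.05. Each SE was taken as the absolute log2 fold change over sqrt(F), and log2 values per library used a prior count of 2. On simulated counts for sg2 against control (13720 genes), edgeR recovered 76 of 93 genes simulated with a change of 0.5 and 102 of 107 with a change of 1, and made 15 false calls. The guide was searched in hg38 with up to 3 mismatches next to NGG. The common biological coefficient of variation was 6.24%. Total counts per library, 10031809 to 78966125, set the precision, and intervals and tests cover these libraries only.

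Members and gene lists were chosen with earlier results of these data known. The rule for named genes took, among called genes free of overlap (mean log2 CPM 2 or more), the 12 largest rises and 12 largest falls of protein-coding genes and 4 and 4 of other types, genes called also against sg3, the KDM4 genes, the 5 genes of the study, JAK2 and MYC, and up to 3 called members and the highest expressed member of each list. Other list members, genes near the cut and the promoters were picked for description after their values were seen. Some genes that the rule took are not reported here. Alternatives were the 8 libraries alone, RLE scaling, no filter, DESeq2 1.42.0, limma-voom (limma 3.58.1), a replicate block, thinning to 10031809 counts, leaving out sg2 libraries 1 and 2 or 3 and 4, and leaving out each library. Replicate numbers did not pair the libraries.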

Additional observations from a re-analysis of the deposited data

Results flagged for a closer look

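In 17 of 336 groups of 4 libraries (5.06%, where chance gives about 5%), over 168 genes taken by the naming rule, 1 library stood apart from the other 3 by Dixon's ratio at the 95% level. In sg2, library 4 stood high for KDM4D (3.21 CPM, others 2.57 to 2.66), HBG2 (3151 CPM), ATF3 (8.29 CPM), RPL13A (2609 CPM) and ERO1B (16.9 CPM), and low for ADAR (361 CPM, others 399 to 406). Library 3 stood high for PDK4 (2.39 CPM, others 1.29 to 1.41) and FADS1 (446 CPM). In control, library 4 stood high for HBG2 (3522 CPM, others 2709 to 2747) and TAF2 (125 CPM) and low for BBC3 (14.7 CPM) and CD79B (2.25 CPM). Control library 1 stood high for SAP30-DT (3.16 CPM) and low for BMF (5.02 CPM, others 5.29 to 5.33) and PDGFRB (1.53 CPM, others 2.02 to 2.04). EGR1 stood high in control library 2 (255 CPM) and EHMT1 low in control library 3 (75.1 CPM). HBG2 was high in library 4 of both sg2 and control. The call of PDK4, at 0.90 on the log2 scale, was lost in 4 of 17 alternatives.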

How the results depend on the processing

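The number of genes called for sg2 against control was 4015 with the 8 libraries alone, 3962 with RLE scaling, 3690 with no filter, 3917 with DESeq2, 4180 with limma-voom, 3817 with the replicate block, 3170 after thinning and 3884 without sg2 libraries 1 and 2, and it moved to 2026 without sg2 libraries 3 and 4. Leaving out 1 library gave 3009 to 3794. In none of these alternatives did a called gene turn its sign. KDM4C was called in every alternative, at -0.40 to -0.73. For sg2 against sg3 the count of 1 became 0 with the 8 libraries alone and without sg2 libraries 1 and 2, 367 with no filter, 121 with DESeq2, 18 with limma-voom and 967 without sg2 libraries 3 and 4, and lay between 0 and 201 on leaving out 1 library, highest without sg2 library 4 and 0 without sg2 library 2 or sg3 library 1 or 3. The cause was not tested.

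Same-numbered libraries did not deviate together (r from -0.167 to 0.0565). With the replicate block, 3817 genes were called for sg2 against control and 25 for sg2 against sg3.

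Signs reversed for genes that were not called over all libraries. Of these, SLC25A37 (0.31) and EGR1 (0.38) were called without sg2 libraries 1 and 2, SLC25A37 also with no filter and without sg2 library 1 or 2, EGR1 also without sg2 library 2, and CKB (-0.16) without sg2 libraries 3 and 4. SLC39A8 measured -0.000384 with no filter, -0.00277 after thinning and -0.0390 without sg2 libraries 1 and 2. Also without those, CKB measured 0.0235, ADAR -0.0143 and POLR2B -0.0324. Without sg2 libraries 3 and 4, SLC25A37 measured -0.00963, EGR1 -0.10, RPS6 -0.00137, HSP90B1 0.0419, MCM4 0.0222 and H2BC12 0.0451. H2BC12 also measured 0.0175 with limma-voom, 0.0121 with the replicate block and 0.0549 after thinning. On leaving out 1 library, values ran over -0.0131 to 0.0383 for FASN, -0.0192 to 0.0255 for SLC39A8, -0.134 to 0.0325 for HBG2, -0.000238 to 0.0353 for IGFBP5, -0.0277 to 0.0382 for RPS6, -0.054 to 0.00721 for HSP90B1, -0.00830 to 0.0460 for POLR2B and -0.166 to 0.124 for H2BC12.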
